A study of Homo sapiens with 24 samples.

Results

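The axon guidance ligands and receptors comprised 69 of the 30142 genes on the array, covered by 119 of its 41000 probes, and were taken by gene symbol from the array's own annotation. They were 20 semaphorins, 9 plexins, 2 neuropilins, 8 ephrins, 14 EPH receptors, 3 SLIT ligands, 4 ROBO receptors, 4 netrins and 5 genes with UNC5 symbols. UNC5CL, named for its likeness to the UNC5 receptors, entered through its symbol. The cells were 4 established lines of diffuse large B-cell lymphoma (DLBCL), of which DB and K422 are of the germinal centre B-cell-like (GCB) type and HBL-1 and OCI-Ly3 of the activated B-cell-like (ABC) type. FOXP1, a forkhead transcription factor, was silenced for 48 h with siFOXP1_308 or siFOXP1_309, delivered at 1 µM by electroporation, and RNA of these cells was hybridised on 2-colour arrays against RNA of cells of the same line given a non-targeting siRNA (siCtrl). Each line and siRNA had 3 replicates, which makes 6 arrays per line and 24 in all. Each subtype was represented by only 2 cultured lines, and all cells, controls included, had been electroporated with an siRNA. The comparisons ask how these guidance genes respond to loss of FOXP1, whether the response differs between ABC-DLBCL and GCB-DLBCL lines, and how the lines differ before silencing.

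Guidance cues were first described as signals that steer growing axons, and the same ligands and receptors act on the cytoskeleton, adhesion and migration of lymphocytes. Semaphorins signal through plexins, with neuropilins as co-receptors for the secreted forms. Ephrins are membrane-bound ligands of the EPH receptor tyrosine kinases, and both partners can signal into the cell that carries them. SLIT proteins bind ROBO receptors, and netrins bind receptors of the UNC5 and DCC families. In B cells SEMA4D (CD100) acts through CD72 as well as plexins, and PLXND1 is known from the trafficking of germinal centre B cells and developing thymocytes.

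Most of these genes were dim in the lymphoma lines. Feature Extraction, the scanner software, marks a spot as well above background when its signal exceeds the local background clearly, and in the siCtrl channel this held on all 24 arrays for 12 of the 69 guidance genes (17.4%), against 43% of all genes. The 12 were SEMA3B, SEMA4A, SEMA4B, SEMA4C, SEMA4F, PLXNA1, PLXNB1, ROBO3, EFNA4, EFNB1, EFNB3 and SLIT1. A further 8 (11.6%, against 17.6% of all genes) stayed near background in both channels throughout by their brightest probe, namely EPHA3, EPHA5, EPHA6, EPHA7, SEMA3D, SEMA3E, SEMA6D and SLIT2. Of these, EPHA3 and SEMA3D had other probes that cleared the mark on 1 array of a line, OCI-Ly3 for both and HBL-1 for SEMA3D as well. By line, 28 guidance genes were well above background on all 6 siCtrl channels of HBL-1, 28 of OCI-Ly3, 23 of K422 and 19 of DB. Of the 20 semaphorins 6 were detected in this way in DB and 12 in HBL-1, and of the 14 EPH receptors 5 were in OCI-Ly3, 3 in K422, 2 in HBL-1 and 1 in DB. Of the 2 neuropilins, 1, NRP2, was detected in DB and K422 and none in the ABC-DLBCL lines. Where the software put its own floor value in place of both signals it listed a ratio of 0, and other dim spots kept a ratio of their own. A listed 0 made up 29.2% of the ratios of guidance genes and 23.6% of those of all genes.

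**Figure D1:**
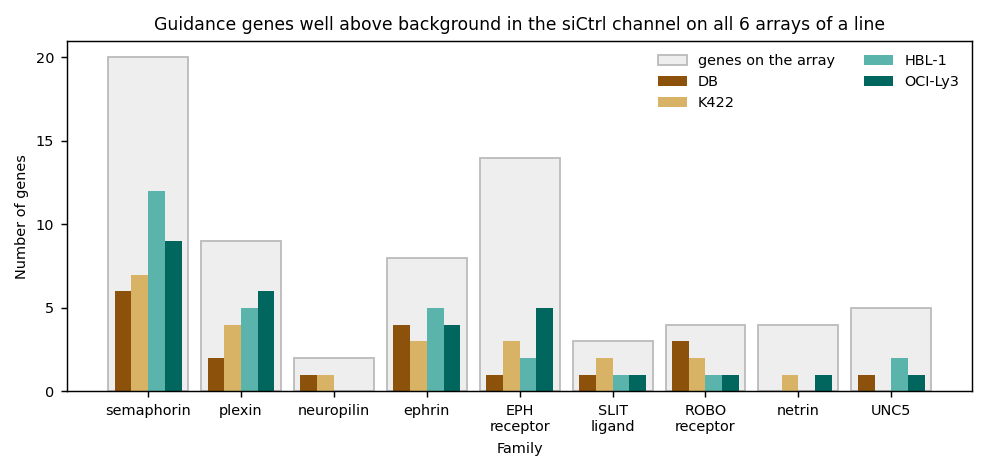
Number of genes per family (vertical axis) whose probe was well above background in the siCtrl channel on all 6 arrays of a line, coloured bars, against the number of genes of the family on the array, grey bars. DB has 3 of 4 ROBO receptors in this class and OCI-Ly3 has 6 of 9 plexins.

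FOXP1 fell on 6 of 6 arrays in every line, with a mean log2 ratio between -1.34 in K422 and -2.0 in DB. All 7 B-cell markers were well above background on every siCtrl channel. Of 5 ABC markers, IRF4 and CCND2 were not detected in the GCB-DLBCL lines, but BATF, FUT8 and PIM1 were bright on all their siCtrl channels. Of 5 GCB markers, MME was not detected in the ABC-DLBCL lines, but LMO2 and BCL6 were bright on all their siCtrl channels. MYBL1 was so on 5 of 6 in HBL-1 and 4 of 6 in OCI-Ly3, and SERPINA9 on 0 and 5. Most markers of either list thus did not separate the subtypes by detection. None of 3 fibroblast markers, and at most 2 of 4 T-cell, 2 of 4 monocyte, 1 of 3 endothelial and 1 of 4 neuronal markers, were well above background on all control channels of a line. The endothelial one was PECAM1, which B cells also carry, and the monocyte ones were CSF1R and, in K422, CD14. The dyes were never swapped, with Cy3 for silenced and Cy5 for control cells. For any 1 line, dye bias and the effect of silencing therefore cannot be told apart, whereas a bias that is constant for a probe cancels when responses of lines are compared.

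Between 2 and 9 guidance genes per line were called after FOXP1 silencing. A gene was called when limma's adjusted p over all genes was under 0.05 and the mean log2(siFOXP1/siCtrl) of the 6 arrays was at least 0.5 in size, which is the fold limit the study set. In DB 2 guidance genes rose and none fell, where 1.33% of all genes rose and 0.829% fell. In K422 3 rose and 2 fell, beside 2.34% and 2.1% of all genes. In HBL-1 6 rose and 3 fell, beside 5.73% and 4.17% of all genes. In OCI-Ly3 8 of the 69 rose (11.6%) and none fell, beside 2.8% and 1.62% of all genes. The median log2 ratio of the guidance genes lay between 0 and 0.03 in the 4 lines, and that of all genes was 0 in each. In the authors' value matrix, which is on a log2 scale with unstated centring, the split was 2 higher and 5 lower in DB and 9 higher and 3 lower in OCI-Ly3. Of all genes, 2048 were called in DB and 1927 in OCI-Ly3 with that matrix, and 652 and 1332 with the scanner ratios. The 20 genes called in at least 1 line were 29% of the 69, beside 16.2% of all genes. Of the 20, 16 were called in a single line, and PLXNB1, PLXND1, SEMA4A and EPHB6 rose in 2 lines each. The share of single-line calls among all called genes of the array was not counted, so this split has no array value beside it. The 24 calls were not equally well measured. In 15 a channel was well above background on all 6 arrays, and in the other 9 neither was. Of those 9, 7 were lost when their line was fitted alone. With normexp background correction, which adds an offset to all signals, 19 of the 24 were lost under both ways of centring. Calls with both channels bright on all 6 arrays were among those lost, such as SEMA4D in K422 and SEMA4A in HBL-1. The cause of these losses was not tested. The split with normexp was 0 higher and 1 lower in K422. In HBL-1 it was 1 and 1 with loess or 1 and 3 with median centring. Over all genes, calls in K422 fell from 1338 to 255 with loess and 480 with median centring. In HBL-1 they fell from 2985 to 978 and 2029. PLXNA1 in K422, PLXND1 and SEMA4C in HBL-1 and SEMA4A in OCI-Ly3 passed under both, and PLXNB1 in OCI-Ly3 passed with loess.

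**Figure D2:**
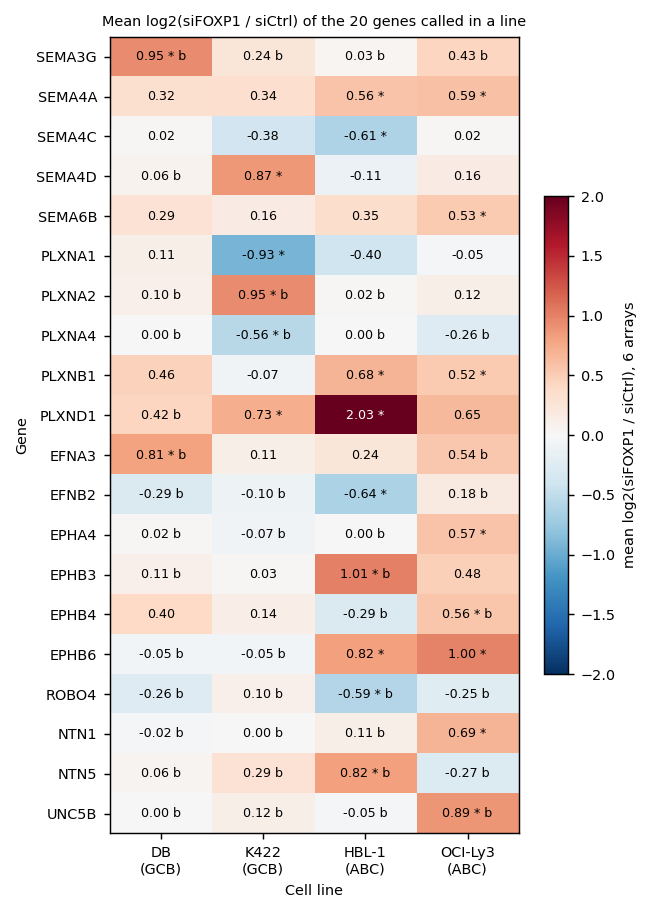
Mean log2(siFOXP1/siCtrl) of 6 arrays for the 20 guidance genes called in at least 1 line (rows) in the 4 lines (columns). A star marks a call and the letter b marks values for which neither channel was well above background on all 6 arrays. The largest value is 2.03 for PLXND1 in HBL-1.

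Among the plexins, PLXND1 showed the largest response of any guidance gene. Its probe lies at chr3:130757088-130757147 of hg18, on the minus strand. In HBL-1 the log2 ratio ran from 1.31 over a median of 2.11 to 2.64 on the 6 arrays, with 1.66 as the mean of siFOXP1_308 and 2.39 as that of siFOXP1_309. All 6 arrays were high and both channels were well above background on each, and the mean of 2.03 ± 0.51 (SD, n = 6 arrays), 4.07-fold, passed limma (adjusted p = 4.78e-06) and every alternative run. In K422 the 6 ratios ran from 0.34 to 1.104 with a median of 0.71 and a mean of 0.73 ± 0.28 (adjusted p = 0.0415), and the siCtrl signal exceeded background clearly on 3 of 6 arrays. The K422 call was lost without replicate 1 (0.58), 2 (0.87) or 3 (0.75) and with arrays of the same number as a block (adjusted p = 0.0515). A dimmer second PLXND1 probe gave 1.87 in HBL-1, but -1.83 in K422 where at most 2 arrays had signal well above background, so that the mean over both probes turned to -0.55 in K422 (adjusted p = 0.0277). In OCI-Ly3 the arrays ranged from -0.54 to 1.49 around a mean of 0.65 and did not pass (adjusted p = 0.0752), and in DB neither channel was above background. PLXND1 did pass in OCI-Ly3 with the authors' matrix, with dim probes left out and without OCI-Ly3 replicate 1. Its OCI-Ly3 value over all alternatives lay between 0.182 and 1.091. The response in HBL-1 exceeded that in K422, scanned in the same session, by 1.29 (SE 0.34, adjusted p = 0.0222).

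PLXNB1, a receptor of SEMA4D, was bright on all 24 arrays and rose in both ABC-DLBCL lines. In HBL-1 its log2 ratio ran from 0.47 over 0.63 to 0.94, a mean of 0.68 ± 0.20 (n = 6 arrays, adjusted p = 1.49e-06), and in OCI-Ly3 from 0.30 over 0.53 to 0.83, a mean of 0.52 ± 0.19 (adjusted p = 7.05e-05). In DB it was above 0 on 6 of 6 arrays, from 0.01 to 0.74, with a mean of 0.46 ± 0.29 that stayed under the fold limit (adjusted p = 4.36e-04). PLXNB1 did pass in DB with siFOXP1_308 alone and without DB replicate 1. Its DB value over all alternatives lay between 0.249 and 0.677. K422 stood apart, with ratios from -0.31 to 0.23 on both sides of 0, and lay below every HBL-1 array. The difference between HBL-1 and K422 was 0.76 (SE 0.10, adjusted p = 1.17e-04), while OCI-Ly3 and DB differed by 0.06 (adjusted p = 0.884). The OCI-Ly3 value fell to 0.45, under the fold limit, without replicate 3. That call was also lost with normexp and median centring and with siFOXP1_309 alone. The HBL-1 call was lost under both normexp settings (0.29 at the lowest).

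PLXNA1, a partner of neuropilins in the reception of secreted semaphorins, fell in K422. Its ratio was between -1.57 and -0.36 there, with a median of -0.81 and a mean of -0.93 ± 0.53 (n = 6 arrays, adjusted p = 7.47e-07). The 2 siRNAs did not overlap in K422, since the 3 arrays of siFOXP1_308 averaged -0.48 and those of siFOXP1_309 averaged -1.38. In HBL-1 it was below 0 on 6 of 6 arrays with a mean of -0.40 ± 0.20, under the fold limit (adjusted p = 9.03e-04), and in DB and OCI-Ly3 the means were 0.11 and -0.05. PLXNA1 did pass in HBL-1 with normexp and median centring and with siFOXP1_309 alone. A second, dimmer PLXNA1 probe gave 0.04 in K422, where it was not above background, and 0.10 in HBL-1, where it was bright on all 6 arrays, so the probes disagree in HBL-1. The mean over both probes in K422 was -0.44, under the fold limit. PLXNA2 rose by 0.95 ± 0.70 and PLXNA4 fell by 0.56 on the log2 scale in K422, but both were well above background on at most 2 of 6 arrays there. With K422 fitted alone neither passed (adjusted p = 0.0679 and 0.2), and the PLXNA4 value was 0.12 with siFOXP1_308 alone and -0.36 without replicate 3. PLXNA3, PLXNB2, PLXNB3 and PLXNC1 were not called in any line.

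Of the 20 semaphorins, 5 were called in at least 1 line, where 16.2% of all genes were. SEMA4A, a membrane-bound ligand that also acts on T cells, was above 0 on all 24 arrays. Its mean log2 ratio was 0.59 ± 0.16 in OCI-Ly3 and 0.56 ± 0.14 in HBL-1, against 0.32 ± 0.19 in DB and 0.34 ± 0.15 in K422 (SD, n = 6 arrays each). It passed the fold limit in the ABC-DLBCL lines (adjusted p = 1.08e-05 for OCI-Ly3, 5.01e-06 for HBL-1) and not in the GCB-DLBCL lines (adjusted p = 0.00501 for DB, 0.00153 for K422). The arrays overlapped, from 0.11 to 0.64 in DB and from 0.36 to 0.80 in OCI-Ly3. The difference between subtypes was 0.25 (SE 0.07, adjusted p = 0.0304), under the limit of 0.5. Its SE and p come from the spread among arrays of a line and siRNA, not among lines of a subtype. Within a scan session the difference was 0.27 for OCI-Ly3 against DB (adjusted p = 0.168) and 0.22 for HBL-1 against K422 (adjusted p = 0.177). Since the dyes were never swapped, the part of this response that all lines share cannot be told apart from a dye bias of the probe. The call in OCI-Ly3 passed under every alternative run, and that in HBL-1 was lost under normexp (0.23 at the lowest).

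SEMA4D, the CD100 antigen, was called in K422 and in no other line. The 6 ratios in K422 ran from 0.59 over 0.86 to 1.18, with both channels well above background throughout, and gave a mean of 0.87 ± 0.24 (n = 6 arrays, adjusted p = 7.09e-07). Both siRNAs gave like values, 0.93 and 0.81. In HBL-1 the ratios spread from -0.47 to 0.29, below every K422 array, and in OCI-Ly3 they lay between 0.05 and 0.27, while DB had no SEMA4D signal above background. The HBL-1 response was lower than that of K422 by 0.98 (SE 0.11, adjusted p = 1.30e-05), so that in K422 the ligand rose and its receptor PLXNB1 did not pass, and in HBL-1 the receptor rose and the ligand did not pass. A second SEMA4D probe gave 0.24 ± 0.32 in K422, and the brighter probe gave 0.23 with normexp and loess.

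SEMA4C fell in HBL-1, from -0.92 to -0.29 around a mean of -0.61 ± 0.25 (n = 6 arrays, adjusted p = 0.019). It was below 0 on all 6 arrays of K422 as well, between -0.55 and -0.29, with a mean of -0.38 ± 0.09 that did not pass (adjusted p = 0.193). In DB single arrays reached from -0.64 to 1.70, a spread that widened the error of the gene in all lines. The HBL-1 call was lost without replicate 1 (-0.48) or 3 (-0.63), and a second, dimmer probe gave -0.01. In K422 the second probe was bright on all 6 arrays and gave 0.20, so the probes differ in sign there. SEMA6B, a transmembrane semaphorin, rose in OCI-Ly3 by 0.53 ± 0.21, from 0.22 to 0.75 on the 6 arrays (adjusted p = 5.04e-04), with means between 0.16 and 0.35 in the other lines. SEMA3G, a secreted form, had a mean of 0.95 ± 0.62 in DB (adjusted p = 0.00552), but its siCtrl channel was at background on all 6 arrays and its siFOXP1 channel was above it on 2, so no fold is given. Without replicate 2 of DB it was 0.87 (adjusted p = 0.0564).

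**Figure D3:**
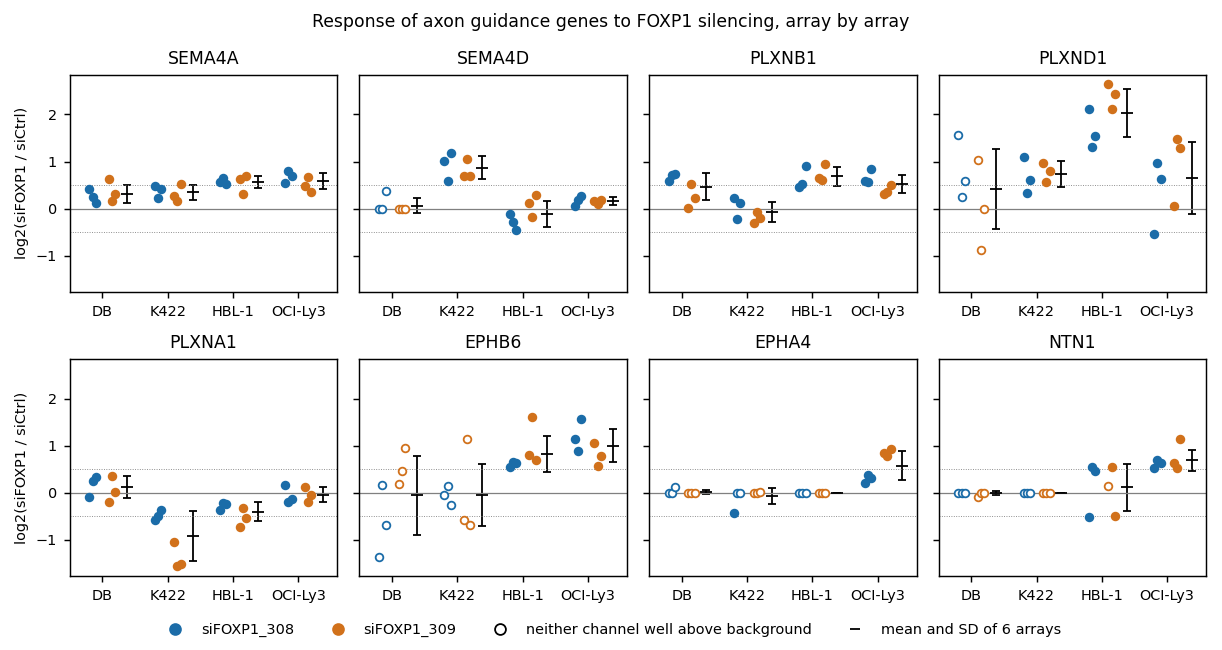
log2(siFOXP1/siCtrl) of 8 guidance genes on each array (vertical axis) by cell line, in blue for siFOXP1_308 and orange for siFOXP1_309. Open circles are spots with neither channel well above background, black bars are the mean and SD of 6 arrays and dotted lines mark ±0.5. All 6 HBL-1 arrays of PLXND1 lie above 1.3, and SEMA4D is raised on all 6 K422 arrays.

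Of the 14 EPH receptors, 4 were called higher in an ABC-DLBCL line and none in a GCB-DLBCL line, where 7.63% of all genes were higher in an ABC-DLBCL line and 3.41% in a GCB-DLBCL line. Few EPH receptors were bright in DB and K422, as given above, and EPHB4 in DB, at 0.40, passed without DB replicate 3 (0.602, adjusted p = 0.0481) and with the widest arrays left out (0.555, adjusted p = 0.0467). EPHB6, a member without kinase activity that is known from T cells, rose in both. Its probe lies at chr7:142278499-142278558 of hg18. In HBL-1 the ratio ran from 0.55 over 0.67 to 1.60, a mean of 0.82 ± 0.39 (n = 6 arrays, adjusted p = 0.00526), and in OCI-Ly3 from 0.57 over 0.96 to 1.57, a mean of 1.00 ± 0.35 (adjusted p = 0.00251). Every ABC-DLBCL array was above 0.5. In DB and K422 neither channel was well above background on any array, and the ratios there, from -1.38 to 1.13, scattered around a mean of -0.05 in each. EPHB6 was the 1 guidance gene called between subtypes, where 1.4% of all genes were higher and 0.866% lower in the ABC-DLBCL lines. The difference was 0.96 (SE 0.21, adjusted p = 0.00742). Within a scan session it was 1.05 for OCI-Ly3 against DB (adjusted p = 0.0714) and 0.87 for HBL-1 against K422 (adjusted p = 0.0735). The SE and p between subtypes come from the spread among arrays of a line and siRNA, not among lines of a subtype. They cover these 4 lines only. This comparison sets measured ratios against ratios taken at background, and under normexp the difference was 0.30 or 0.31, short of the fold limit. The 1 guidance gene called between subtypes was PLXND1 under either normexp setting and PLXNB1 with siFOXP1_309 alone. Without replicate 2 of HBL-1, which held the array at 1.60, the HBL-1 value was 0.675 (adjusted p = 0.0658).

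EPHA4, a receptor of both ephrin classes, rose in OCI-Ly3, the 1 line in which it was bright. The ratios ran from 0.20 over 0.58 to 0.93, with 0.29 for siFOXP1_308 and 0.85 for siFOXP1_309, and the mean was 0.57 ± 0.31 (n = 6 arrays, adjusted p = 1.01e-07). The arrays of both siRNAs did not overlap. EPHA4 was listed at or near 0 on most arrays of the other lines, which narrows the shared error, and with OCI-Ly3 fitted alone the adjusted p was 0.00218. The gene's other 2 probes, bright on the same 6 arrays, gave 0.40 and 0.25, and the mean over all 3 was 0.41, under the fold limit (adjusted p = 0.00484). EPHB4, which binds EFNB2, had a mean of 0.56 ± 0.26 in OCI-Ly3 (adjusted p = 0.0255) with the siCtrl channel above background on 1 of 6 arrays, and was lost without replicate 1 (0.46), 2 (0.58) or 3 (0.64) and with arrays of the same number as a block (adjusted p = 0.0681). EPHB3, a receptor of B-class ephrins, had a mean of 1.01 ± 0.88 in HBL-1, from 0.14 to 2.51, with the siCtrl channel above background on 1 of 6 arrays (adjusted p = 0.0102), and it did not pass without replicate 1 (0.74) or 2 (0.91). Of the ephrins, the transmembrane ephrin EFNB2 fell in HBL-1, from -1.23 over -0.58 to -0.22, a mean of -0.64 ± 0.38 (n = 6 arrays, adjusted p = 0.00296). All 6 arrays were below 0 and bright in both channels, and the value was -0.55 without replicate 1 (adjusted p = 0.052). EFNA3, a GPI-anchored ephrin, was called in DB at 0.81 ± 0.86, with an array at -0.77 and a siCtrl channel at background, and was lost in 11 of 15 alternatives, among them the block (adjusted p = 0.129) and leaving out replicate 1 (0.80) or 2 (0.64).

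The remaining families gave 4 calls. NTN1, the founding netrin, rose in OCI-Ly3, where the ratios ran from 0.52 over 0.62 to 1.13 and gave a mean of 0.69 ± 0.23 (n = 6 arrays, adjusted p = 5.90e-04). It was bright on all 6 arrays of OCI-Ly3 and listed at 0 on most arrays of DB and K422. With OCI-Ly3 fitted alone the adjusted p was 0.0113, and with a dimmer second probe at -0.34 the mean over both was 0.17. NTN5, another netrin, had a log2 mean of 0.82 ± 0.63 in HBL-1 (adjusted p = 0.0256). Its siCtrl channel was at background on all 6 arrays and its siFOXP1 channel was above it on 4, so no fold is given. The NTN5 call was lost in 10 of 16 alternatives, among them without replicate 1 (0.92) or 3 (0.58). A second, dimmer NTN5 probe gave -0.12 in HBL-1, at background in both channels. UNC5B, a netrin receptor, was called in OCI-Ly3 at 0.89 ± 0.91 (adjusted p = 0.0111), with arrays from -0.44 to 1.92 and signal above background on 1 of 6, and had 0.71 without replicate 1 (adjusted p = 0.128). ROBO4, known from endothelium, was called lower in HBL-1 at -0.59 ± 0.36 (adjusted p = 0.0322) although neither channel was above background on any array, so no fold is given, and it was lost without replicate 1 (-0.48), 2 (-0.58) or 3 (-0.71) and with the block (adjusted p = 0.0742).

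Where the response was compared between lines of the same scan session, 2 guidance genes had a higher response in OCI-Ly3 than in DB and none a lower response, beside 0.965% and 0.461% of all genes. They were EPHA4 and NTN1. Both were at background on all 6 arrays of DB, where the ratio was listed as 0 on 5 of 6, so these calls set the OCI-Ly3 response against a listed 0 and not against a measured response, and no difference is given. Between HBL-1 and K422, 3 were higher and 2 lower, beside 2.31% and 2.03% of all genes. The higher ones were PLXND1, PLXNB1 and PLXNA1 (0.52, adjusted p = 0.0071), and the lower ones SEMA4D and PLXNA2. The PLXNA2 probe exceeded background clearly on none of the HBL-1 controls and on 1 of 6 of K422, so no difference is given for it. PLXNA1 was thus less reduced in HBL-1 than in K422. These contrasts share no arrays with each other.

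Of the 12 guidance genes that were bright in every control, 4 were called in a line, namely PLXNA1, PLXNB1, SEMA4A and SEMA4C. Of all genes, bright or dim, 16.2% were called in at least 1 line. The share among equally bright genes was not counted. The other 8 stayed under the fold limit in every line. SEMA4B was above 0 on 6 of 6 arrays in DB (0.34 ± 0.12, adjusted p = 7.07e-04) and in OCI-Ly3 (0.18 ± 0.14, adjusted p = 0.0388), and EFNB3 was below 0 on 6 of 6 arrays in OCI-Ly3 (-0.23 ± 0.11, adjusted p = 0.00679). SEMA4F had means between 0.12 and 0.21, EFNA4 between -0.08 and 0.18 and EFNB1 between -0.01 and 0.125, none of which passed. ROBO3 ran from -0.15 in K422 to 0.29 in DB and SLIT1 from -0.16 in K422 to 0.06 in DB. SEMA3B had an SD of 0.95 in DB, where an array reached 1.85, and means between 0.04 and 0.33.

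More guidance genes were called between lines before silencing, at a wider limit, than in response to it. Levels are log2 of the siCtrl signal, the arrays of the same line and number were averaged to 3 controls per line, and lines were compared only within a scan session, and a gene was called past an adjusted p of 0.05 if the lines differed by 1 or more on the log2 scale. In OCI-Ly3 against DB 16 guidance genes were higher and 12 lower, beside 12.1% and 14.2% of all genes. In HBL-1 against K422 16 were higher and 9 lower, beside 11.7% and 13.9% of all genes. With normexp correction the counts dropped to 12 and 9 in all. Those of all genes dropped as well, from 7927 to 4228 of 30142 in OCI-Ly3 against DB. In HBL-1 against K422 they dropped from 7709 to 3787 of 30141. Each contrast sets a single ABC-DLBCL line against a single GCB-DLBCL line, and whether a difference belongs to the subtype or to the line cannot be told apart.

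ROBO receptors gave the widest gaps. The ROBO1 level was 11.45, 10.77 and 10.67 in the 3 controls of DB and was not well above background in any other line. It was at least 109-fold lower in OCI-Ly3 than in DB (limma adjusted p = 3.71e-11). ROBO2 stood at 11.18, 10.45 and 10.42 in DB and at 12.25, 11.58 and 11.58 in K422, and at background in HBL-1 and OCI-Ly3. It was at least 89.7-fold lower in OCI-Ly3 than in DB and at least 254-fold lower in HBL-1 than in K422 (adjusted p = 2.57e-10 and 1.18e-10). ROBO2 had 3 probes, and these levels and bounds rest on the brightest. The others cleared background on 2 of 6 controls each in DB and on 6 of 6 in K422. Both ROBO2 calls were kept with the mean over probes. ROBO3 went the other way, with 6.13, 5.68 and 5.28 in DB against 10.44, 10.17 and 10.35 in OCI-Ly3, 24.6-fold higher (adjusted p = 9.10e-08), and was not called between HBL-1 and K422. Of their SLIT ligands, SLIT2 was at background throughout, and SLIT1 was 4.19-fold lower in HBL-1 than in K422 (adjusted p = 4.43e-06).

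NRP2, a co-receptor of secreted semaphorins, was well above background on all 6 control channels of DB and K422. Its level was 6.02, 6.64 and 6.83 in DB and 5.61, 5.89 and 5.12 in K422. In OCI-Ly3 it was 4.47, 2.10 and 2.18, with 1 of 6 arrays above background (log2 difference -3.58 from DB, adjusted p = 2.02e-04, and -4.36 without OCI-Ly3 replicate 1), and in HBL-1 it was at background and at least 3.31-fold lower than in K422 (adjusted p = 2.84e-04). Normexp reduced these log2 differences to -0.80 and -0.56, under the limit. The mean over the 4 NRP2 probes was -0.97 between HBL-1 and K422, under the limit as well, and the other 3 were not above background on any K422 control. NRP2, ROBO2 and EPHB4 were lower in both contrasts, and EPHB6, NTN1, PLXND1 and SEMA4D were higher in both. With normexp, of these 7 only ROBO2 was called in both. NTN1 cleared background on 2 of 6 HBL-1 controls, and NTN1 and SEMA4D were also lost between HBL-1 and K422 with the mean over probes. PLXNB2 was called higher in both contrasts too, but its HBL-1 controls, at 10.34, 10.71 and 10.19, overlapped those of K422, at 10.24, 8.91 and 8.50 (2.29-fold, adjusted p = 0.0443). That call was lost without HBL-1 replicate 1 (adjusted p = 0.0848), 2 (0.134) or 3 (0.0667) and without K422 replicate 2 (0.134) or 3 (0.171). The other called genes were called in a single contrast or, as SEMA4A, SEMA4C, PLXNB1, EFNA1, EPHA10 and UNC5CL, moved in opposite directions. How many of all genes were called alike in both contrasts was not counted. The guidance genes called in both therefore have no array value beside them.

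**Figure D4:**
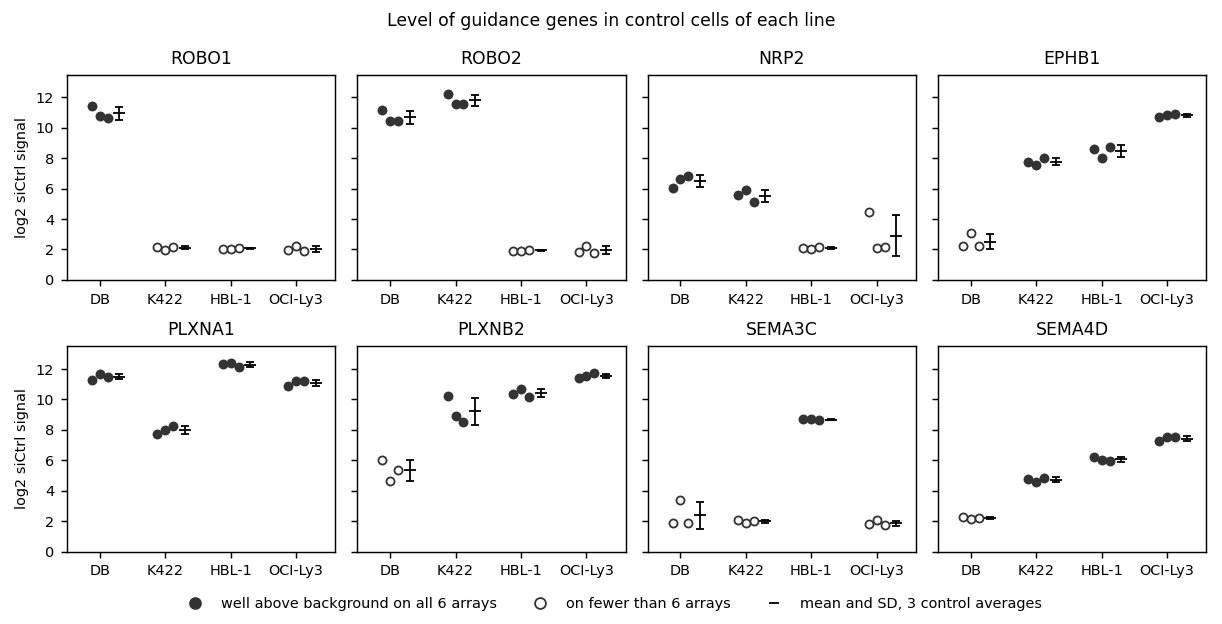
log2 siCtrl signal of 8 guidance genes (vertical axis) in the 4 lines, as 3 control averages per line with their mean and SD. Filled circles mark lines in which the probe was well above background on all 6 arrays. ROBO1 is bright in DB, ROBO2 in DB and K422, and SEMA3C in HBL-1.

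Among receptors, EPHB1, a receptor of B-class ephrins, was not above background in DB and stood at 10.72, 10.82 and 10.93 in OCI-Ly3, at least 67.1-fold higher (adjusted p = 5.83e-10). PLXNB2, a broadly expressed plexin, was 74.4-fold higher in OCI-Ly3 than in DB, at 11.44, 11.52 and 11.72 against 6.04, 4.65 and 5.34 (adjusted p = 4.69e-07). It cleared background on 4 of 6 DB controls, and its log2 difference of 6.22 was 4.29 at the lowest over the alternatives. PLXNA2 was at least 28.9-fold higher in OCI-Ly3, the 1 line where it was bright. EPHA10 was 6.55-fold lower in OCI-Ly3 than in DB, and higher in HBL-1 than in K422, where it was above background on 1 of 6 controls (log2 difference 3.24). The first call was lost with the mean over both probes (-0.735), the second probe being at background in DB and above it on 3 of 6 arrays of OCI-Ly3, and the other with normexp (0.63). PLXNA1, which fell on silencing in K422, stood at 7.76, 7.97 and 8.26 there against 12.35, 12.40 and 12.12 in HBL-1, which was 19.6-fold higher (adjusted p = 3.41e-09). EPHB3 and EPHB4 were lower in HBL-1 than in K422, EPHB4 at least 3.45-fold and EPHB3 by a log2 difference of -2.31 with 1 of 6 HBL-1 controls above background. Both were lost with normexp (-0.42 and -0.40). UNC5CL was 8.90-fold higher in HBL-1 than in K422, where it cleared background on 4 of 6 controls. Its log2 difference of 3.15 was 1.18 at the lowest over the alternatives and remained called.

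Among ligands, SEMA3C, a secreted semaphorin, was bright on all 6 control channels of HBL-1, at 8.69, 8.69 and 8.66, and at background in K422 and OCI-Ly3. It was at least 27.5-fold higher in HBL-1 than in K422 (adjusted p = 3.53e-08). SEMA5B was likewise bright in HBL-1 only, at least 3.12-fold above K422. SEMA7A, the GPI-anchored semaphorin, was at least 11.4-fold higher and SEMA4D at least 6.40-fold higher in OCI-Ly3 than in DB, where neither was detected. SEMA4B was 2.24-fold lower in OCI-Ly3 than in DB (adjusted p = 3.45e-06). SEMA4A, SEMA4C and PLXNB1 were higher in OCI-Ly3 than in DB and lower in HBL-1 than in K422, so the direction differed between the contrasts.

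Of 77 co-receptors and downstream effectors of the guidance pathway tested, 6 rose (7.79%) and 3 fell (3.9%) in HBL-1, beside 5.73% and 4.17% of all genes. In OCI-Ly3 4 rose (5.19%) and 3 fell (3.9%), beside 2.8% and 1.62%. In K422 4 rose (5.19%) and 2 fell (2.6%), beside 2.34% and 2.1%. In DB none rose and 1 fell (1.3%), beside 1.33% and 0.829%. CFL1, cofilin, which severs actin filaments, rose in HBL-1 (0.68 ± 0.15), OCI-Ly3 (0.59 ± 0.18) and K422 (0.57 ± 0.19), and had 0.42 ± 0.36 in DB. SRGAP1, a GTPase-activating protein that acts downstream of ROBO, rose in K422 (0.69 ± 0.43) and HBL-1 (1.03 ± 0.34). FARP2, an exchange factor bound by plexin complexes, fell in K422 (-0.52 ± 0.27) and HBL-1 (-0.55 ± 0.22). The adjusted p of these calls lay between 1.72e-05 and 0.00456. With the dyes never swapped, the part of the CFL1 response that all lines share cannot be told apart from a dye bias of its probe. The alternative settings were not read for these pathway genes.

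Promoter sequence was read for 17 of the 20 called genes, as the 250 bases before each transcription start listed by RefSeq on GRCh38.p14, a different build from the hg18 coordinates of the probes. Letters that forkhead factors are known to bind were searched on both strands. TGTTTAC occurred in 2.98% of all 35116 promoters. TATTTAT occurred in 4.6% of them. TATTTGT, which opens with the same letters, occurred in 3.18%. Among the 22 promoters of called genes, TATTTAT occurred in 1, that of EPHB6, and the other letters in none. Shown are the windows of PLXND1 with the largest rise, at chr3:129606677-129606926 on the minus strand, of EPHB6 with the subtype difference, at chr7:142862506-142862755 on the plus strand, and, for K422, of PLXNA1, which fell, at chr3:126982865-126983114 on the plus strand, and SEMA4D, which rose, at chr9:89495657-89495906 on the minus strand. Each reads 5′ to 3′ towards the start, and capitals mark the TATTTAT letters.
PLXND1: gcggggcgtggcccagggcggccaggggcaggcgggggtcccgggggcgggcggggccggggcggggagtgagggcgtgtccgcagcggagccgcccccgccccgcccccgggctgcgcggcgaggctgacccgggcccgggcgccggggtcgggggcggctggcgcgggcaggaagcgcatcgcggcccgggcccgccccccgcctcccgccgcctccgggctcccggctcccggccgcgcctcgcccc
EPHB6: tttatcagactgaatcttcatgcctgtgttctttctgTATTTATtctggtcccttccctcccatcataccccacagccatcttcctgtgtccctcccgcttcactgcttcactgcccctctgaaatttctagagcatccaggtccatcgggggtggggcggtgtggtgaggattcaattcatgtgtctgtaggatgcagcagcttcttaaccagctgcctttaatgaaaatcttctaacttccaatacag
PLXNA1: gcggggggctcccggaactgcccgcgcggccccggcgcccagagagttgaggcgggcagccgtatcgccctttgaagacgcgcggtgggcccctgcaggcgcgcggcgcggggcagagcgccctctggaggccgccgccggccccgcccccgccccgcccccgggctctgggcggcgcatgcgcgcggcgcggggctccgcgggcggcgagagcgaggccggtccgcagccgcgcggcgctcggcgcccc
SEMA4D: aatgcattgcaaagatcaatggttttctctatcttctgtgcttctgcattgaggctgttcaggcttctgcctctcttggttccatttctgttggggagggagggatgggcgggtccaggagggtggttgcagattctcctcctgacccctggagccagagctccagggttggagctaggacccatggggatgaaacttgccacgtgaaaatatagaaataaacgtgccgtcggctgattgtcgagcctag
The PLXND1 and PLXNA1 windows are rich in G and C, at 88.8% and 84.4%, with 41 and 46 CG pairs, whereas EPHB6 and SEMA4D have 48% and 52.4% with 3 and 6. The TATTTAT of EPHB6 begins 213 bases before the start, on the strand of the gene. A match is a description of letters and not a binding site, and no match concerns this window alone.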

How the data were processed

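Each of 24 2-colour Agilent arrays held RNA of FOXP1-silenced cells (Cy3) and of siCtrl cells (Cy5) of 1 line. The authors deposited Feature Extraction output with each channel's intensity and the log10 of Cy5 over Cy3, background-subtracted and normalized within the array (version 10.5.1.1 for DB and OCI-Ly3, 10.7.3.1 for K422 and HBL-1, scanned in separate sessions). They also deposited a matrix on a log2 scale, whose columns correlated with the turned scanner ratios between 0.804 and 0.998. Probe coordinates follow hg18.

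The deposited log10 ratios were turned to log2(siFOXP1/siCtrl). Of 45015 spots per array, 1639 control spots and 113 to 469 outlier spots did not enter. Repeated spots of a probe were averaged, and a gene was read from its brightest probe. Per array 57.2% to 64.4% of probes were well above background in a channel, and precision is set by how many arrays there were. With limma 3.58.1 (R 4.3.3), each line and siRNA had its own mean in a fit of all arrays, a line's value being the mean of both siRNAs, and Benjamini-Hochberg adjustment ran over all genes. Baseline fits used log2 intensity of Cy5 after Aquantile normalization. Bounds set the bright line's mean against the higher of the dim probe's signal and the lowest signal well above background on each array. A ± is an SD over arrays. The scripts were tested on simulated data.

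Named were members called in a line or between subtypes, those bright in all controls, and the 5 largest rises and falls at baseline, plus pathway genes called in at least 2 lines. Members and lists were chosen with earlier results of these data known. The labels call the replicates biological, and same-numbered arrays of a line correlated between 0.0468 and 0.284 in their deviations over all genes and between 0.115 and 0.573 over 16450 bright genes. Whether they shared control RNA is not known, and where they did p-values are too small.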

Additional observations from a re-analysis of the deposited data

Results flagged for a closer look

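A single array stood apart from the other 5 of its line in 2 of the 24 called pairs of gene and line tested by Dixon's criterion, where chance gives about 1.2. EPHB6 in HBL-1 had 1.60 on the array of siFOXP1_309 replicate 2, and the other 5 arrays lay between 0.55 and 0.81. NTN1 in OCI-Ly3 had 1.13 on the array of siFOXP1_309 replicate 3, and the other 5 lay between 0.52 and 0.69. The response of EPHB6 differed between the ABC-DLBCL and GCB-DLBCL lines by 0.96 on the log2 scale (limma adjusted p = 0.00742), with the GCB-DLBCL ratios taken at background.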

How the results depend on the processing

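Counts of called guidance genes were compared as DB, K422, HBL-1, OCI-Ly3 and between subtypes, where the values reported are 2, 5, 9, 8 and 1, and at baseline 28 and 25. Normexp with loess gave 0, 1, 2 and 2 for the lines in this order, and normexp with median centring gave 0, 1, 4 and 1. Calls over all genes in the same order were 652, 1338, 2985 and 1332 in the fit reported. They were 80, 255, 978 and 307 with normexp and loess, and 57, 480, 2029 and 267 with median centring. At baseline normexp gave 12 in OCI-Ly3 against DB and 9 in HBL-1 against K422, all of them among those reported. Over all genes it gave 4228 and 3787, against 7927 and 7709 in the fit reported. The deposited matrix gave 7 in DB and 3 between subtypes. Over all genes it gave 2048 and 819, where the fit reported had 652 and 682. Without dim probes there were 0 in DB, 3 in K422 and 0 between subtypes, and the mean over probes gave 2 in K422, 5 in HBL-1 and 2 between subtypes. Of all genes 437, 957 and 263 were called without dim probes, and 1196, 2735 and 616 with the mean over probes. Each line fitted alone gave 0 in DB and 3 in K422, with 96 and 851 of all genes. Within a scan session the response of 2 differed between OCI-Ly3 and DB and of 5 between HBL-1 and K422, with 296 and 1281 of all genes. These contrasts set 1 line against 1 line, so they do not test the subtypes, and EPHB6 was called in neither. The methods' t-test with Benjamini-Hochberg adjustment gave 0 in DB and 2 in K422, with 53 and 761 of all genes. siFOXP1_308 alone gave 2 in K422, 4 in HBL-1, 4 in OCI-Ly3 and 0 between subtypes, and siFOXP1_309 alone gave 0 in DB and 3 in OCI-Ly3. Of all genes 1034, 1622, 971 and 170 were called with siFOXP1_308 alone, and 323 and 688 with siFOXP1_309 alone. Leaving out a replicate gave 4 to 6 in HBL-1, 6 to 7 in OCI-Ly3, 3 to 6 in K422, 0 to 4 in DB, 1 to 3 between subtypes and, at baseline, 26 to 28 and 23 to 25. In DB the 0 was without replicate 2 and the 4 without replicate 3, in K422 the 3 was without replicate 3, in HBL-1 the 4 was without replicate 1, and between subtypes the 3 was without DB replicate 1, with 2 without DB replicate 3, K422 replicate 2 or OCI-Ly3 replicate 1. Over all genes, leaving out a replicate gave 2281 to 3502 in HBL-1, 1137 to 1186 in OCI-Ly3 and 1106 to 1400 in K422. In DB it gave 612 without replicate 2 and 1031 without replicate 3. Between subtypes it gave 549 to 795, and at baseline 7803 to 8061 and 7460 to 7832. With the replicate block, arrays of the same number paired within a line (correlation 0.248), the counts were 1, 4, 8, 7 and 1, and the slide block gave 1 in DB. Over all genes the replicate block gave 472, 1105, 2733, 1100 and 506, and the slide block gave 421 in DB. PLXNA4 in K422 turned to 0.023 with normexp and median centring and to 0.12 with siFOXP1_308 alone, and PLXND1 in K422 to -0.55 with the mean over probes. Leaving out the 2 arrays with the widest ratios, chosen after seeing the data, gave 3, 4, 9, 8 and 1. Over all genes it gave 843, 1243, 3029, 1389 and 769. The cause of these shifts was not tested. In 9 of the 24 calls neither channel was well above background on all 6 arrays.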
